A study of Mus musculus with 2 samples.

Results

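Fibroblast-like cells that express Dcn, the gene for the collagen-binding proteoglycan decorin, were described in single-cell RNA libraries of adult mouse cochlear explants. They were chosen by measured values: a kept cell was a member when it had at least 5 Dcn UMIs (unique transcript molecules) per 10000 UMIs, no Epcam UMI and fewer than 4 UMIs summed over 7 mitotic genes. By this rule 110 of 2913 kept cells were members, 71 of 1329 in the cocktail library and 39 of 1584 in the vehicle library. Among cells with at least 5000 UMIs, the members nearest to the Dcn threshold had 5.13 (cocktail), 5.18 (vehicle) and 5.22 (vehicle) Dcn UMIs per 10000. The nearest cells outside it had 4.70 (cocktail), 4.62 (vehicle) and 4.55 (cocktail).

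The explants were whole cochleae of C57BL/6J mice aged 4 to 6 weeks, kept in culture, and sensory epithelium was taken from them for dissociation. The cocktail group was held for 4 days in valproic acid (VPA, 1.5 mM), lithium chloride (LiCl, 8 mM), forskolin (FSK, 20 µM) and the siRNAs siFIR and siMxi1 (0.02 µM each). The vehicle group was treated for 4 days with the vehicle alone, which the labels give as sterile water with 0.1% DMSO. Both groups then received an adenovirus carrying the hair cell transcription factor Atoh1 (ad.Atoh1) for 2 weeks, so the vehicle group is not an untreated cochlea. Cells of 5 cultures per group were captured together in 1 library by the labels and cannot be assigned to cultures here. Differences between the libraries are therefore untested, with a single library on either side, and all intervals are 95% intervals that cover counting error only. PCR and droplet capture add spread that these intervals do not hold.

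Fibroblasts make and turn over the collagen and proteoglycan matrix of connective tissue, and in the cochlea they lie in the spiral ligament and the spiral limbus, below the sensory epithelium and around the bone. Decorin binds collagen fibrils and is a widely used fibroblast marker. Spp1 encodes osteopontin, a secreted phosphoprotein that binds integrins and CD44 and is made by bone cells and by activated stromal cells. Cxcl12 encodes the ligand of the receptor CXCR4 and is a typical product of stromal cells that hold other cells in place. Sfrp4 encodes a secreted Wnt antagonist, and Hmga2 a chromatin protein that is abundant in embryonic mesenchyme.

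Before filtering there were 1403 barcodes and 19625208 UMIs in the cocktail library and 1688 barcodes and 23108868 UMIs in the vehicle library. The labels give about 1400 cocktail and about 1700 vehicle cells. No barcode was shared by the libraries. Scrublet, a doublet caller, called 0 cocktail and 2 vehicle cells among the kept ones and no member, a rate too low to take doublets as found. Free RNA gives stray UMIs in droplet data, and Epcam-positive epithelial cells served as the background. With at least 5000 UMIs, 1 of 493 Epcam-positive cocktail cells and 2 of 572 Epcam-positive vehicle cells met the Dcn level. Any Dcn UMI was found in 7.30% of those cocktail cells (median depth 20566 UMIs) and in 5.24% of those vehicle cells (median depth 17233.5 UMIs).

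Members made up a larger share of the cocktail library over all kept cells, and most of that difference lay among shallow cells. Their share was 5.34% in the cocktail library (exact interval 4.20% to 6.69%) against 2.46% in the vehicle library (1.76% to 3.35%), a difference of 2.88 points (Newcombe interval 1.48 to 4.37). With at least 5000 UMIs the cocktail library had 32 members among 825 cells (3.88%, 2.67% to 5.43%) and the vehicle library 32 among 1158 (2.76%, 1.90% to 3.88%), a difference of 1.12 points with an interval of -0.461 to 2.86 that holds 0. Under 5000 UMIs they were 39 of 504 cocktail cells (7.74%) and 7 of 426 vehicle cells (1.64%). The shallow cocktail members had a median of 1123 UMIs, and 18 of these 39 cells entered through a single Dcn UMI. The 7 shallow vehicle members had a median of 1640 UMIs, and none of them entered through a single Dcn UMI. At that depth 1 Dcn UMI is enough to pass the threshold, so the shallow shares depend on depth as well as on Dcn. In the shallow Epcam-positive cells, 1 of 195 cocktail and 0 of 187 vehicle cells met the Dcn level.

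**Figure D1:**
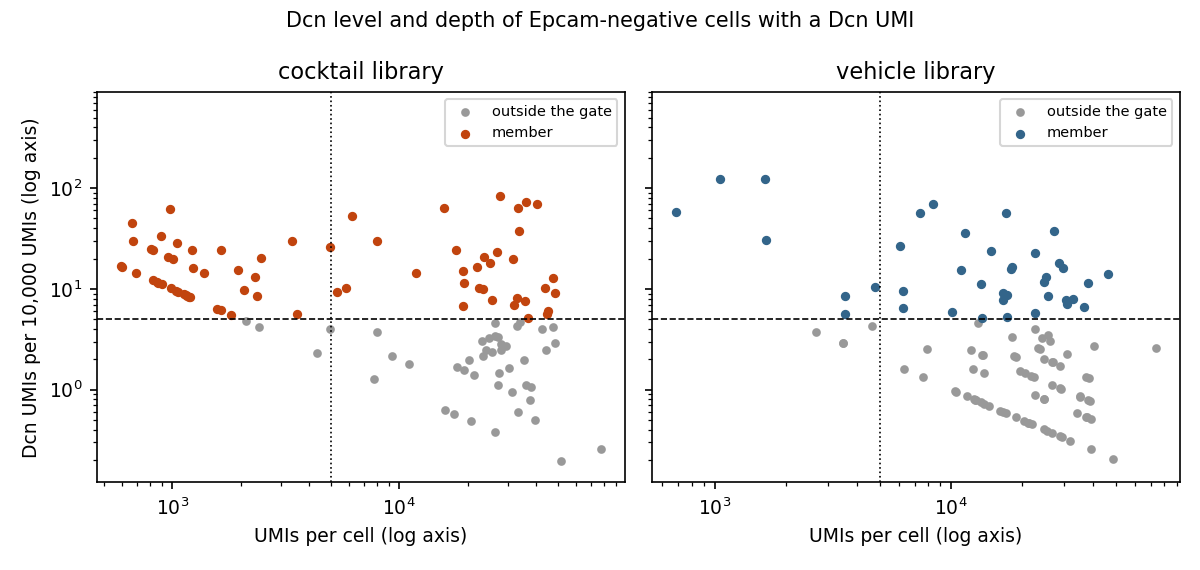
Dcn UMIs per 10000 (log axis) against UMIs per cell (log axis) for the Epcam-negative cells with a Dcn UMI and fewer than 4 mitotic UMIs, cocktail left and vehicle right; each point is a cell, coloured points are members, the dashed line is the threshold of 5 and the dotted line 5000 UMIs. The cocktail panel holds 39 members left of the dotted line and the vehicle panel 7, while both hold 32 to its right.

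Further results concern the 32 cocktail and 32 vehicle members with at least 5000 UMIs unless stated otherwise. Cocktail members ranged in depth from 5343 to 48515 UMIs with a median of 26302.5. Vehicle members ranged from 6070 to 45911 UMIs with a median of 17569. In total they held 867469 cocktail and 650862 vehicle UMIs, and a count of 3 UMIs equals 3.46 CPM (UMIs per 1000000) in the cocktail members and 4.61 CPM in the vehicle members. Dcn itself had a lowest, median and highest level of 5.13, 13.6 and 84.0 UMIs per 10000 in cocktail members and of 5.18, 11.5 and 70.2 UMIs per 10000 in vehicle members. The 2 ranges overlap almost wholly.

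Most fibroblast markers were present, but their presence did not set these cells apart from bone-gated cells. Of the 13 fibroblast markers other than Dcn, which the rule uses, 12 were detected in at least 10% of the 64 deep members, against 13 in cells gated on the bone genes Ibsp or Alpl, 11 in cells gated on Otor and 10 in all other kept cells of that depth. Their summed level was 12022 CPM in the deep members, beside 12851 CPM in the bone gate, 7697 CPM in the Otor gate and 2744 CPM in all other kept cells. Among the detected markers were the collagen genes Col1a2 (in 89.1% of members) and Col3a1 (81.2%), the matrix calcification inhibitor Mgp (92.2%), fibronectin Fn1 (90.6%), the growth factor receptor gene Pdgfra (54.7%) and the proteoglycan lumican, Lum (46.9%). The marker under 10% was Thy1, in 6.25% of members. Markers of named fibroblast subtypes from other tissues were scarce: Dpp4 was at 0 UMIs, Cd34 had 1 UMI and Pi16 had 2 UMIs. Ly6a, a surface antigen of stromal progenitors and an interferon-responsive gene, was found in 57.8% of members. Some genes that mark cochlear connective tissue were also present. The secreted protein gene Coch was in 59.4% of members, and the mesenchymal transcription factors Pou3f4 in 64.1% and Tbx18 in 50.0%. Of 10 markers listed for cochlear fibrocytes, 7 were detected in at least 10% of the deep members. That number was 5 in the Otor gate, in the bone gate and in cells gated on the matrix gene Mfap4. Their summed level did not set the members apart. It was 632 CPM in the deep members, beside 822 CPM in the Otor gate, 690 CPM in the Mfap4 gate and 609 CPM in the bone gate.

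As a description of what the rule collected, genes were ranked by their fold over all other kept cells, with 10 CPM added to both sides. These folds were taken over all 110 members, shallow ones included. The genes furthest above were Dcn (33.2-fold), the lipocalin Apod (15.6-fold), Sfrp4 (14.7-fold), the iron carrier transferrin Trf (14.0-fold) and Spp1 (10.4-fold). Next came Col3a1 (8.87-fold), the ion transport regulator Fxyd5 (7.96-fold), the selenium carrier Selenop (7.65-fold) and Mgp (7.37-fold). They were followed by the lipopolysaccharide-binding protein Lbp (7.32-fold), the cartilage collagen Col2a1 (7.27-fold), Cxcl12 (6.88-fold), Cpxm1 (6.80-fold), the chemokine Ccl7 (6.77-fold) and the growth factor binder Igfbp7 (6.03-fold). Spp1 reached 19564 CPM in the deep members, which was second only to the nuclear RNA Malat1 at 25130 CPM in 3′ UMI counts that are not scaled by length. Col2a1 was found in 40.6% of deep members and Sox9, a transcription factor of cartilage, in 64.1%.

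Markers of several other cell types were at or near 0 in the deep members. The summed level was 3.29 CPM for the 5 epithelial markers other than Epcam, which is 0 by the rule, 5.93 CPM for 7 hair cell markers, 4.61 CPM for 6 supporting and interdental cell markers, 7.90 CPM for 6 glial markers, 10.5 CPM for 7 macrophage markers and 11.2 CPM for 5 melanocyte markers. The defining genes Cdh1, Pou4f3, Otof, Sox2, Sox10, C1qa, C1qb, Ptprc and Tyrobp had no UMI. Higher sums were found for bone, cartilage and mural markers, at 748, 499 and 330 CPM, and intermediate ones for myoblast markers (52.0 CPM), neuronal markers (42.8 CPM) and endothelial markers (40.8 CPM). Of the neuronal markers Snap25 had no UMI, while the tubulin gene Tubb3 had 24 UMIs in 6 cocktail members and 39 UMIs in 8 vehicle members. Of the vehicle members 5 also carried at least 5 UMIs per 10000 of the bone genes Ibsp or Alpl, and no cocktail member did. A single vehicle member held all 105 UMIs of the smooth muscle gene Myh11, which was at 0 in cocktail members.

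**Figure D2:**
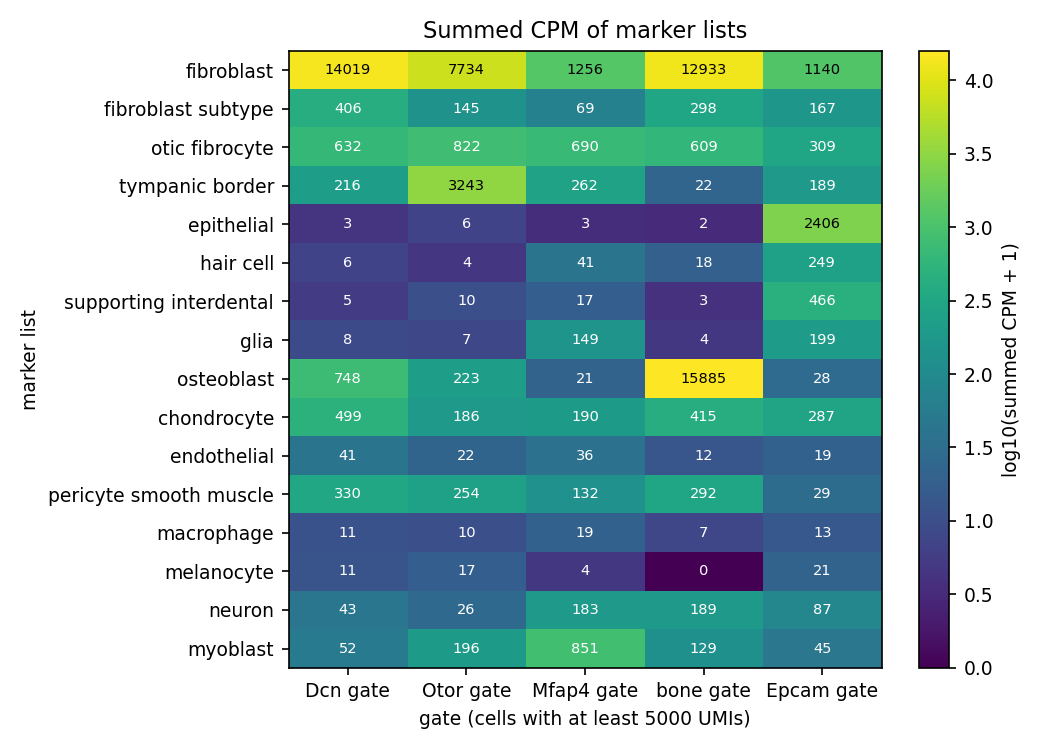
Colour and numbers give the summed CPM of each marker list (rows) in cells with at least 5000 UMIs of 5 gates (columns), both libraries together. The Dcn gate holds 14019 CPM of fibroblast markers, close to the bone gate at 12933 CPM and above the Otor gate at 7734 CPM and the Epcam gate at 1140 CPM; Dcn and Epcam, which define their gates, are included in the sums.

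The gradient genes Spp1, Sfrp4 and Cxcl12 stood at different levels in other mesenchymal gates and in Epcam-positive cells, none of which hold members. Hmga2 is not given for these gates. Spp1 was at 19564 CPM in the Dcn gate, and at 2145 CPM in 57 cells gated on Otor, the gene of a secreted cochlear protein, 21.9 CPM in 43 cells gated on the matrix gene Mfap4, 2941 CPM in 49 bone-gated cells and 247 CPM in 1065 Epcam-positive cells. Sfrp4 was at 319 CPM in the Dcn gate and at 14.4 CPM in the Otor gate, 0 CPM in the Mfap4 gate, 20.5 CPM in the bone gate and 1.12 CPM in the Epcam gate. Cxcl12 followed at 574 CPM in the Dcn gate against 296, 39.8, 44.1 and 11.4 CPM in the same order of gates. Cells and gates come from the same 2 libraries, and no test was made of these levels.

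The comparison of cocktail with vehicle members asked how the pretreatment went with gene expression in these cells. For each gene the UMIs of the 32 members of a library were summed and the log2 ratio of CPM was taken as cocktail over vehicle, with an exact conditional interval. A gene counted as higher or lower when it differed at least 2-fold and had at least 50 UMIs in both libraries together. Of 4634 genes with that many UMIs, 165 were at least 2-fold higher in cocktail members (3.56% of the genes) and 110 at least 2-fold lower (2.37%), 5.93% either way. These shares are the background against which every list below is read. Single cells weigh heavily at this size: in 43 of the 165 higher genes and 17 of the 110 lower genes, at least 50% of the UMIs of the higher library came from 1 cell. When the top cell of either library was dropped, 126 of the higher and 91 of the lower genes stayed past 2-fold. The median log2 ratio over 7970 genes with at least 20 UMIs was -0.01, with 48.8% of them above 0.

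The genes targeted by the pretreatment and the delivered gene were examined first. Puf60 is the gene of FIR, a repressor of Myc, and siFIR is assumed to act on it. It had 32 UMIs in cocktail members and 34 UMIs in vehicle members, a log2 ratio of -0.50 (-1.25 to 0.24). Mxi1, the Myc antagonist that siMxi1 targets, had 31 UMIs in cocktail members and 28 UMIs in vehicle members, a log2 ratio of -0.27 (-1.05 to 0.52). At this depth neither gene could be told from no difference, 2 weeks after the siRNAs. Atoh1 had 72 UMIs in 4 cocktail members and 25 UMIs in 6 vehicle members, but 57 of the cocktail UMIs were in 1 cell. Its log2 ratio was 1.11 (0.44 to 1.83), -0.31 without each library's highest cell and -0.86 among members with at least 10 Dcn UMIs per 10000, so it has no stable direction. The counts do not say whether the viral or the native Atoh1 was read.

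Spp1, on mouse chromosome 5 (GRCm38, 104435118 to 104441050, plus strand), ranged widely between cells. It was found in 29 of 32 cocktail and 31 of 32 vehicle members. The lowest, median and highest levels were 0, 96.9 and 1278 UMIs per 10000 in cocktail members and 0, 105 and 1170 in vehicle members. The 2 distributions lay over each other, and summed levels of 21378 CPM in cocktail members and 17146 CPM in vehicle members gave a log2 ratio of 0.32 (0.28 to 0.35). That ratio had no stable direction, since it was -0.18 among members with at least 10 Dcn UMIs per 10000 and -0.14 among members with no mitotic UMI. In the cocktail library 5 cells held at least 50% of all Spp1 UMIs, and in the vehicle library 4 cells did.

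Genes were then set against the Spp1 gradient within each library. After thinning each cell to 5000 UMIs, cells were ordered by Spp1 within a library, and low, middle and high groups of 11, 11 and 10 cells were formed. Spp1 itself was at 18, 118 and 482 UMIs per 10000 in cocktail members and at 13.6, 106 and 414 in vehicle members, as the ordering sets. The metal-binding protein gene Mt1 was at 20.2, 33.3 and 80.0 UMIs per 10000 in cocktail members and at 14.2, 30.0 and 46.8 in vehicle members. Timp1, an inhibitor of matrix metalloproteinases, was at 25.6, 57.8 and 67.0 in cocktail members and at 24.7, 36.7 and 53.8 in vehicle members. Both genes thus increased at each step in both libraries, with a rho against Spp1 of 0.64 over cocktail and 0.37 over vehicle members for Mt1 and of 0.55 and 0.30 for Timp1. Anxa2, which encodes a calcium-dependent membrane-binding protein, was the gene whose rank order was most like that of Spp1 among 2578 genes, with Spearman's rho of 0.60 over cocktail members and 0.43 over vehicle members. The membrane protein gene Tm4sf1 (0.47 and 0.42) and the pyrophosphate transport gene Ank (0.42 and 0.44) came next, followed by the RNA-binding protein gene Pcbp2 (0.42 and 0.40), the translation initiation factor gene Eif1ax (0.39 and 0.43) and the ribosomal protein gene Rpl34 (0.45 and 0.39). Serpinf1, the secreted antiangiogenic factor PEDF, had an opposite order (-0.30 and -0.34). The stromelysin Mmp3 was at 8 UMIs per 10000 in the high cocktail group and at 1 in the high vehicle group, and at 0.18 in both low groups.

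These correlations are over 32 cells per library that share a library, and they are descriptions without a test. Spp1 and the depth of the cell before thinning had a rho of 0.33 over cocktail members and 0.13 over vehicle members, and the part of depth in the Spp1 gradient was not tested.

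**Figure D3:**
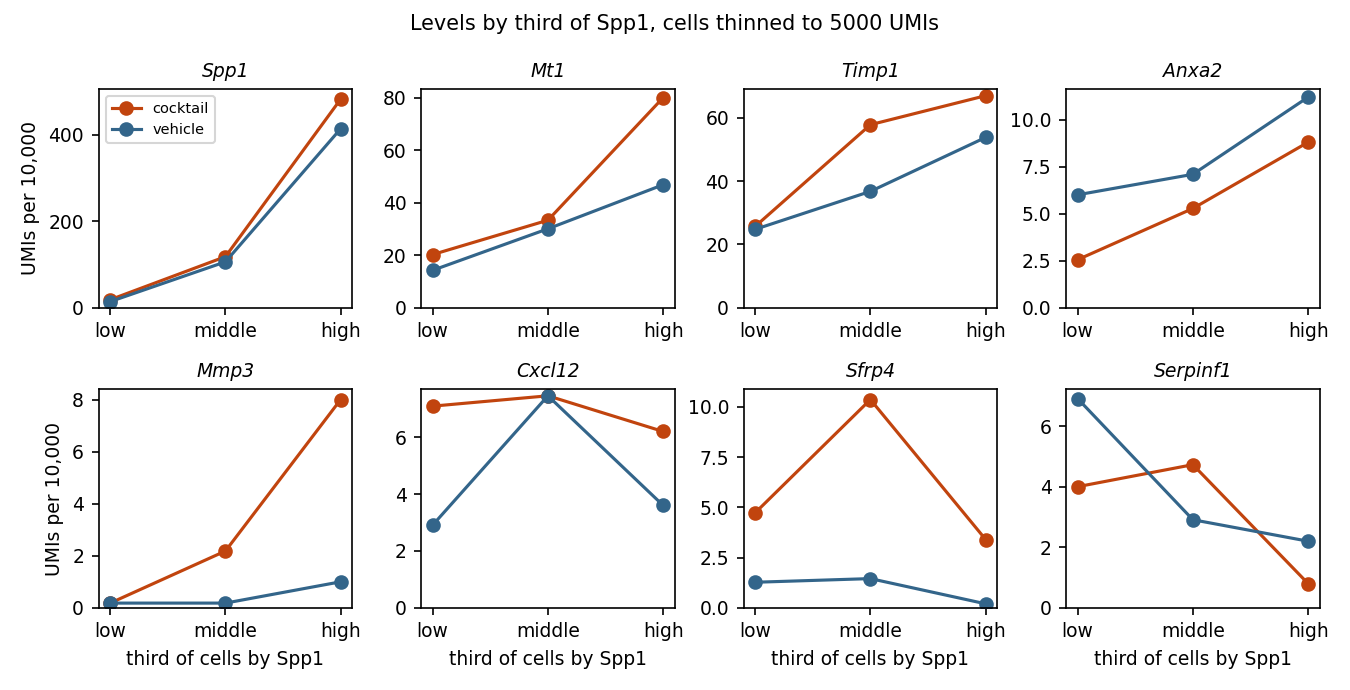
Each panel gives a gene's UMIs per 10000, from a linear axis that starts at 0, in the low, middle and high group of members by Spp1 (11, 11 and 10 cells per library, thinned to 5000 UMIs). Mt1, Timp1 and Anxa2 increase from low to high in both libraries, while Cxcl12 and Sfrp4 do not. Anxa2 and Serpinf1 were chosen by their rank order against Spp1 in these same cells, so their course follows from that choice.

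Cxcl12 (chromosome 6, 117168535 to 117181367, plus strand) showed no common order with Spp1. The rank correlation of the pair was 0.03 over cocktail members and -0.02 over vehicle members. It reached 0.55 over all 71 cocktail members without thinning, where depth ranges more widely. Cxcl12 was found in 25 of 32 cocktail and 23 of 32 vehicle members, with a lowest, median and highest level of 0, 2.77 and 33.1 UMIs per 10000 in cocktail members and of 0, 1.55 and 45.2 in vehicle members. Summed levels were 623 CPM in cocktail members and 510 CPM in vehicle members, a log2 ratio of 0.29 (0.09 to 0.49). The direction was not stable, since the ratio was -0.29 with at least 2 Dcn UMIs per 10000 as the threshold, 0.071 without members holding a mitotic UMI and 0.51 without each library's highest cell.

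The proteoglycan gene Ogn had the rank order most like that of Cxcl12, with rho 0.50 over cocktail members and 0.63 over vehicle members. The complement protease gene C1ra (0.50 and 0.44), Sfrp4 (0.43 and 0.48) and the endocytic receptor gene Lrp1 (0.45 and 0.41) followed, and then the membrane protein genes Itm2a (0.57 and 0.40) and Nsg1 (0.46 and 0.39). The levels of Ogn describe the same cells in which it was chosen. In thinned cells with a Cxcl12 UMI, Ogn was at 3.56 UMIs per 10000 in 18 cocktail members and at 3.76 in 17 vehicle members. In thinned cells without one it was at 0.71 in 14 cocktail members and 0.80 in 15 vehicle members. The nucleoside kinase gene Nme1 (-0.36 and -0.48) and the translation factor gene Eif5a (-0.33 and -0.58) had an opposite order.

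Sfrp4 (chromosome 13, 19623104 to 19632994, plus strand) had the largest ratio of the 4 gradient genes. It had 421 UMIs in 19 cocktail members and 64 UMIs in 13 vehicle members, 485 CPM in cocktail members and 98.3 CPM in vehicle members. The log2 ratio was 2.30 (1.92 to 2.71). Per cell, the lowest, median and highest levels were 0, 0.61 and 55.8 UMIs per 10000 in cocktail members and 0, 0 and 7.02 in vehicle members. In all, 6 cocktail members and no vehicle member had at least 10 Sfrp4 UMIs per 10000, though most cells of both libraries lay in the same low range. The ratio was 2.09 without each library's highest cell, and 1.51 with a threshold of 2 Dcn UMIs per 10000. After thinning, 12 of 32 cocktail and 9 of 32 vehicle members had a Sfrp4 UMI, and the positive cells were at 16.7 UMIs per 10000 in the cocktail library and 3.56 in the vehicle library.

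The genes whose rank order was most like that of Sfrp4 were the membrane protein gene Tmem176b (rho 0.64 over cocktail and 0.60 over vehicle members), the heparin-binding growth factor Ptn (0.61 and 0.53), Tmem176a (0.63 and 0.50), Mdk, a growth factor related to Ptn (0.73 and 0.48), Gas1, a membrane-anchored hedgehog coreceptor (0.79 and 0.47), and the lysosomal protease gene Ctsl (0.46 and 0.54). The levels of Mdk and Ptn describe the same cells in which they were chosen. In thinned cells Mdk was at 21.8 UMIs per 10000 in the 12 Sfrp4-positive cocktail members and at 4.00 in the other 20. It was at 19.1 in the 9 Sfrp4-positive vehicle members and at 6.00 in the other 23. Ptn was at 15.3 in positive and 4.40 in other cocktail members, and at 28.0 in positive and 5.57 in other vehicle members. The elongation factor gene Eef1g (-0.52 and -0.58) had the most opposite order.

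Hmga2 (chromosome 10, 120361275 to 120476469, minus strand) rested on few cells. It had 112 UMIs in 12 cocktail members and 40 UMIs in 9 vehicle members, with medians of 0 in both libraries and highest levels of 27.2 UMIs per 10000 in a cocktail cell and 10.8 in a vehicle cell. One cocktail cell held 70 of the 112 UMIs, or 62.5%. The log2 ratio was 1.07 (0.54 to 1.63), 0.39 without each library's highest cell, and -1.48 among members with at least 10 Dcn UMIs per 10000, so its direction is not stable. Sfrp4 and Hmga2 had opposite rank orders, with rho -0.40 over cocktail and -0.26 over vehicle members. Among 10 thinned cocktail members with a Hmga2 UMI, 1 had a Sfrp4 UMI, and among 5 such vehicle members none had. Over all thinned members, 12 of 32 cocktail and 9 of 32 vehicle members had a Sfrp4 UMI. The Hmga2-positive cells are too few, above all in the vehicle library, to tell their overlap with Sfrp4 from these shares. Those Hmga2-positive members were at 0.80 UMIs per 10000 of Ptn in the cocktail library and 2.80 in the vehicle library, below the 12 of Hmga2-negative cocktail members and the 13.6 of Hmga2-negative vehicle members.

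**Figure D4:**
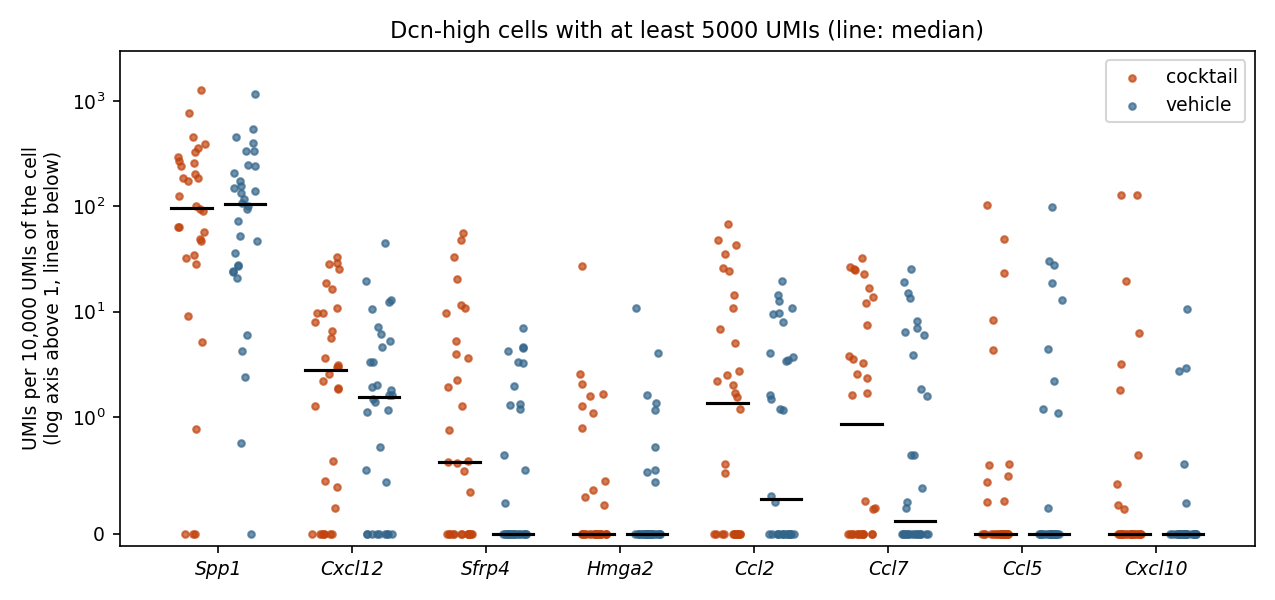
UMIs per 10000 of each cell (log axis above 1, linear below) for 8 genes in the members with at least 5000 UMIs, cocktail left and vehicle right of each gene; points are cells and black lines medians over 32 cells. The libraries overlap for all 8 genes, and the highest cell is a cocktail cell for each gene but Cxcl12.

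Chemokines, which recruit leukocytes, were divided. Of the 22 chemokine genes measured, 10 had at least 50 UMIs, and of these 3 were at least 2-fold higher in cocktail members and 1 at least 2-fold lower. The median log2 ratio of the 12 with at least 20 UMIs was 0.48, with 7 above 0 and 5 below, beside -0.01 over all genes. That median was -0.10 with a threshold of 2 Dcn UMIs per 10000. The higher genes were Cxcl10, Ccl2 and Ccl7, and the lower one was Cxcl1, a neutrophil attractant.

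The promoters of Cxcl10 and Cxcl1 are shown because these chemokines, both on chromosome 5, differed in opposite directions. The windows, from RefSeq, run from 250 bases before to 50 bases after the start site in GRCm38.p6, 5′ to 3′ on the gene's strand, Cxcl10 at chr5:92348840-92349139 (minus strand) and Cxcl1 at chr5:90890995-90891294 (plus strand). Capitals mark matches to the interferon-stimulated response element, taken as a pair of GAAA repeats 2 bases apart, and to the kappaB motif on either strand, and overlapping kappaB matches run together.
Cxcl10: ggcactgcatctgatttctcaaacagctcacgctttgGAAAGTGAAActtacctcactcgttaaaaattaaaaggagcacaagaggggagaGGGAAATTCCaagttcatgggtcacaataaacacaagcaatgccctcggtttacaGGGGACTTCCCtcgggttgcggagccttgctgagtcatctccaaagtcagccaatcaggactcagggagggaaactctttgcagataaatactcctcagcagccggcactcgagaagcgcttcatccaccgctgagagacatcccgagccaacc
Cxcl1: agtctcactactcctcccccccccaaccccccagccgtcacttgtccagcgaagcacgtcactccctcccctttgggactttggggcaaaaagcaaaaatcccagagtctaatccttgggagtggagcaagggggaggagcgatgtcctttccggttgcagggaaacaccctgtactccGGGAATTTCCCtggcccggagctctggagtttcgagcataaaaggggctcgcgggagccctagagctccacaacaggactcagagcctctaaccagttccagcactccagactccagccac
Cxcl10 held 1 response element match, starting 213 bases before the start site, and 3 kappaB matches, starting at 159, 104 and 103 bases before it, the last 2 overlapping. Cxcl1 held no match to the response element and 2 overlapping kappaB matches, starting 71 and 70 bases before the start site. Among 32544 mouse promoters of this length, 3.45% held the response element and 8.49% the kappaB motif. Spp1, whose ratio had no stable direction, was scanned too. Of its 2 start sites, 1 had a response element match, starting 157 bases before it. Cxcl12 and Hmga2 were scanned as well and had no match. The cyclic AMP response element and the AP-1 motif were also searched for in these promoters and are not marked in capitals. Their only match was to AP-1 in Cxcl10, starting 74 bases before the start site, and 7.79% of the mouse promoters held AP-1. Ccl2 and Ccl7, the other chemokine genes past 2-fold, had no promoter entry and were not scanned. A match describes letters only, and no link between matches and ratios was tested.

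Cxcl10, an attractant of T cells that interferon induces, had 800 UMIs in 10 cocktail members and 20 UMIs in 5 vehicle members, 922 CPM in cocktail members and 30.7 CPM in vehicle members. The log2 ratio was 4.91 (4.27 to 5.63). Of the cocktail UMIs, 403 came from 1 cell, and the ratio was 4.76 without each library's highest cell. Another cocktail cell, with 26884 UMIs, was at 127.6 Cxcl10 UMIs per 10000, nearly the 127.7 of the highest, and it stays in that ratio. The next highest of these cocktail members was at 19.7, so the size of the ratio rests on very few cells. The highest cell reached 128 UMIs per 10000 in cocktail members and 10.7 in vehicle members, yet 22 cocktail members had no Cxcl10 UMI, so the libraries overlapped at 0. After thinning, 6 cocktail and 3 vehicle members had a Cxcl10 UMI.

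The monocyte attractants Ccl2 and Ccl7, neighbours on chromosome 11, were spread over more cells. Ccl2 had 817 UMIs in 19 cocktail members and 190 UMIs in 17 vehicle members, a log2 ratio of 1.69 (1.46 to 1.93). Ccl7 had 531 UMIs in 19 cocktail members and 151 UMIs in 16 vehicle members, a log2 ratio of 1.40 (1.14 to 1.67). Per cell, Ccl2 had a lowest, median and highest level of 0, 1.37 and 67.2 UMIs per 10000 in cocktail members and of 0, 0.30 and 19.5 in vehicle members. The lower parts of these ranges overlap, and 8 cocktail and 4 vehicle members had at least 10 Ccl2 UMIs per 10000. The pair had similar rank orders, with rho 0.68 over cocktail and 0.44 over vehicle members, while Ccl2 and Cxcl10 had 0.64 over cocktail and 0.12 over vehicle members. Over the 14 settings run for each, the ratio lay between 1.16 and 1.90 for Ccl2, between 0.74 and 2.02 for Ccl7 and between 4.05 and 5.66 for Cxcl10.

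The other chemokines had smaller counts or no clear difference. Ccl5, a T cell and monocyte attractant, was at 699 CPM in cocktail members and 718 CPM in vehicle members, a log2 ratio of -0.04 (-0.22 to 0.14), with 46.0% of the cocktail UMIs and 36.2% of the vehicle UMIs in 1 cell each. Cxcl1 was at 84.2 CPM in 9 cocktail members and at 198 CPM in 15 vehicle members, a log2 ratio of -1.24 (-1.67 to -0.81), and -2.25 without the highest cells. Ccl11, an eosinophil attractant, had 3 UMIs in cocktail members and 32 UMIs in vehicle members, below the minimum of 50. The membrane-bound chemokines Cxcl16 (0.77, 0.16 to 1.41) and Cx3cl1 (0.68, 0.02 to 1.37) were higher in cocktail members by less than 2-fold. The macrophage genes Ccl3, Ccl4 and Ccl6 had no UMI, as did the macrophage markers C1qa, C1qb, Ptprc and Tyrobp.

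Interferon-stimulated genes, which encode antiviral proteins, lay on one side throughout by summed UMIs, though not by the number of positive cells at equal depth. All 24 measured genes of the list had a log2 ratio above 0, with a median of 0.95 beside -0.01 over all genes. Of the 23 with at least 50 UMIs, 10 were at least 2-fold higher in cocktail members and none lower, beside the background of 3.56% and 2.37%. Rsad2 (viperin), which blocks viral replication, had 92 UMIs in 15 cocktail members and 14 UMIs in 6 vehicle members, a log2 ratio of 2.30 (1.48 to 3.23). The antiviral nucleotide kinase gene Cmpk2 had 50 UMIs in 12 cocktail members and 5 UMIs in 4 vehicle members, 2.91 (1.59 to 4.59). One cocktail cell held 58.0% of its UMIs in that library, and the ratio was 2.39 without the highest cells. The RNA-binding effectors Ifit2 (1.41, 0.50 to 2.42), Ifit3 (1.04, 0.69 to 1.40) and Ifit3b (1.28, 0.57 to 2.04) were higher, as were the RNA sensor Ifih1 (1.20, 0.41 to 2.05), the feedback protease Usp18 (1.06, 0.35 to 1.82), Ifi44 (1.25, 0.56 to 2.00), the GTPase gene Gbp3 (1.04, 0.19 to 1.97) and the chaperone gene Rtp4 (1.15, 0.46 to 1.88).

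Among the interferon genes below 2-fold, the ubiquitin-like modifier Isg15 was at 1149 CPM in 29 cocktail members and 593 CPM in 27 vehicle members, a log2 ratio of 0.95 (0.78 to 1.13). Its lowest, median and highest levels were 0, 4.16 and 63.6 UMIs per 10000 in cocktail members and 0, 2.37 and 52.3 in vehicle members, so the ranges overlap over nearly their whole length. The transcription factor gene Irf7 had a log2 ratio of 0.94 (0.45 to 1.46). Cxcl10 and Isg15 had similar rank orders, with rho 0.51 over cocktail and 0.37 over vehicle members. The list median was between 0.45, after thinning, and 1.14 over the 15 settings run. Thinned cells with a UMI were 7 cocktail and 7 vehicle members for Usp18, 5 and 6 for Ifi44, 4 and 4 for Gbp3 and 5 and 4 for Ifih1. For the other genes past 2-fold they were 8 and 2 for Rsad2, 9 and 2 for Ifit2 and 10 and 2 for Rtp4. They were 4 and 1 for Cmpk2, 8 and 5 for Ifit3b and 11 and 9 for Ifit3. The same list had a median of 0.26 in the Otor gate (13 of 19 genes above 0) and of 0.22 in Epcam-positive cells (15 of 23 above 0), where all genes had medians of 0.01 and -0.04. The differences between gates were not tested. Both libraries carry the adenovirus, whose uptake per cell was not measured.

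**Figure D5:**
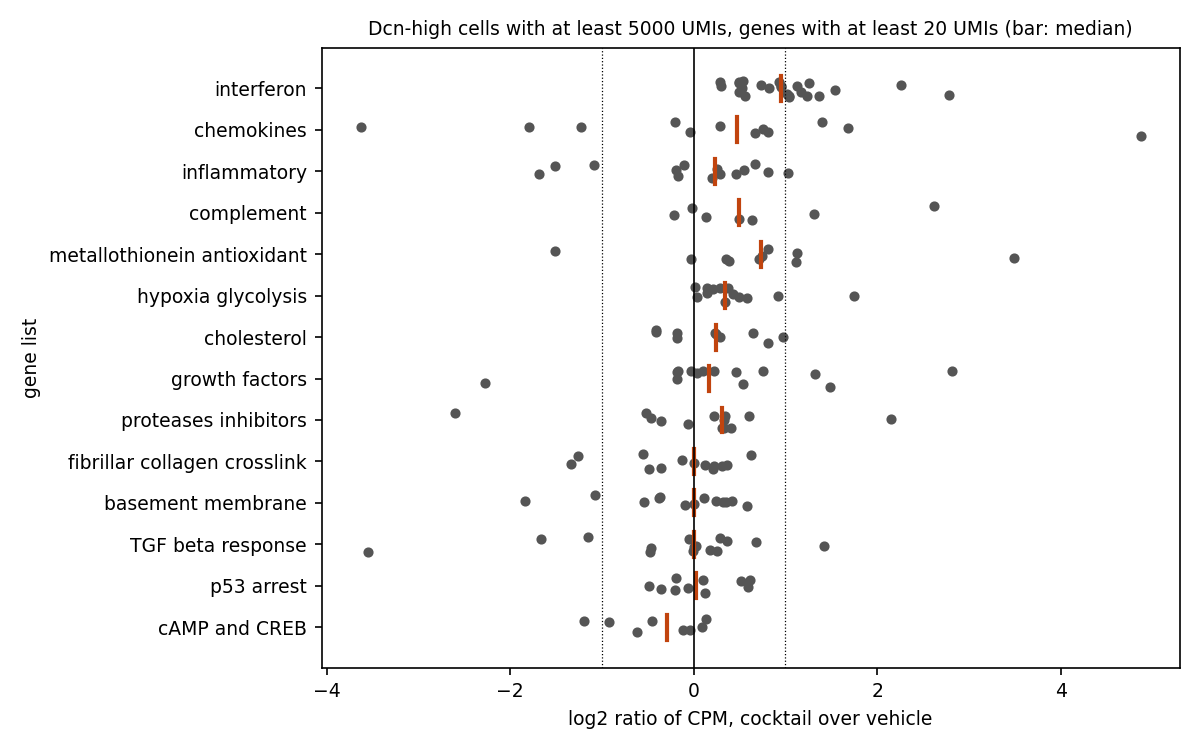
Log2 ratio of CPM, cocktail over vehicle, of the genes (points, at least 20 UMIs) of 14 lists in members with at least 5000 UMIs; orange bars are list medians and dotted lines mark 2-fold. All 24 interferon genes and all 13 hypoxia and glycolysis genes lie right of 0, and the other 12 lists have genes on both sides.

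Other inflammatory and complement genes were mixed. Lcn2, an iron-sequestering lipocalin, was at 1387 CPM in cocktail members and 679 CPM in vehicle members, a log2 ratio of 1.03 (0.87 to 1.19). Il33, an alarmin cytokine gene, was lower in cocktail members, at 58.8 CPM in 15 cocktail cells and 169 CPM in 7 vehicle cells (-1.52, -2.03 to -1.03). These were the only 2 of 9 inflammatory genes with at least 50 UMIs past 2-fold, and the list median was 0.23. The central complement component gene C3 was at 183 CPM in cocktail members and 29.2 CPM in vehicle members, a log2 ratio of 2.65 (1.96 to 3.42). C2 was also higher (1.36, 0.40 to 2.42), and the complement inhibitor Serping1 was at 498 CPM in cocktail members and 353 CPM in vehicle members (0.49, 0.26 to 0.73). In all, 2 of 7 complement genes were at least 2-fold higher and none lower, with a median of 0.49.

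Matrix genes showed no common direction. Over 13 fibrillar collagen and crosslinking genes the median was 0.01, with none at least 2-fold higher and 2 at least 2-fold lower. Col1a2 was at 1193 CPM in cocktail members and 2856 CPM in vehicle members, a log2 ratio of -1.26 (-1.37 to -1.15), and Col5a1 at 70.3 CPM in cocktail members and 178 CPM in vehicle members (-1.34, -1.81 to -0.88). The bone-marked vehicle members bear on the first of these: those 5 cells held 48.7% of the vehicle Col1a2 UMIs, and without them the ratio was -0.54 (-0.67 to -0.41). For Col5a1 they held 32.8%, and without them the ratio was -1.01 (-1.52 to -0.51). Col3a1 was at 964 CPM in cocktail members and 834 CPM in vehicle members (0.21, 0.05 to 0.37), and the elastic fibre protein gene Fbln1 was higher in cocktail members (1.75, 1.27 to 2.25). Of 13 basement membrane genes none of the 11 with at least 50 UMIs passed 2-fold.

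Bone genes were lower in cocktail members, and most of the vehicle UMIs of Ibsp, Ifitm5 and Mmp13 lay in the same 5 vehicle cells. Ibsp, the bone sialoprotein gene, had 1 UMI in cocktail members and 737 UMIs in vehicle members, of which 732 were in those cells. Ifitm5, an osteoblast membrane protein gene, had 2 UMIs in cocktail members and 58 UMIs in vehicle members, all 58 in those cells, and its ratio of -4.96 with a prior count of 0.5 turned to 1.66 without them, on 2 UMIs in all. The collagenase Mmp13 had 20 UMIs in cocktail members and 93 UMIs in vehicle members, 77.4% of them in those cells, and its ratio of -2.63 was -0.73 (-1.69 to 0.23) without them. Runx2, the transcription factor of bone-forming cells, was in 20 cocktail and 23 vehicle members and had a log2 ratio of -0.43 (-0.79 to -0.06), and 0.15 without the 5 cells. Dmp1, a matrix protein gene of osteocytes, had 30 vehicle UMIs and none of them in those cells. Without the 5 cells the Spp1 ratio was 0.23 and the Sfrp4 ratio 2.42.

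The genes with the largest differences by a ranking that leaves out each library's highest cell were next. On the higher side, after Cxcl10, came the matrix protease Mmp3, with 339 UMIs in 12 cocktail members and 57 UMIs in 4 vehicle members, a log2 ratio of 2.16 (1.75 to 2.59). It was 4.47 without the highest cells, since 49 of the 57 vehicle UMIs were in 1 cell. Ptgds, which makes prostaglandin D2, had 172 UMIs in 6 cocktail members and 3 UMIs in 2 vehicle members (5.43, 3.86 to 7.72), and 95 of the 172 came from a single cell. Igfbp6, a binder of insulin-like growth factor 2, had 173 UMIs in 11 cocktail members and 18 UMIs in 5 vehicle members (2.85, 2.15 to 3.64). Selenop was found in more cells, with 396 UMIs in 23 cocktail members and 35 UMIs in 18 vehicle members (3.09, 2.59 to 3.63).

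Apod, a lipid-binding lipocalin, was at 1473 CPM in 22 cocktail members and 277 CPM in 16 vehicle members, a log2 ratio of 2.41 (2.19 to 2.65). Lbp was at 573 CPM in 25 cocktail members and 118 CPM in 18 vehicle members (2.28, 1.93 to 2.64). The cystine transporter gene Slc7a11, which feeds glutathione synthesis, had 82 UMIs in 7 cocktail members and 5 UMIs in 3 vehicle members (3.62, 2.34 to 5.28). Col14a1, a fibril-associated collagen gene (1.91, 1.09 to 2.81), the secreted proteoglycan gene Esm1 (3.65, 2.23 to 5.57) and the sodium and proton exchanger gene Slc9b2 (3.62, 1.98 to 5.94) completed the list with Dennd3. For Dennd3, an activator of Rab GTPases, 340 of 413 cocktail UMIs were in 1 cell, and its ratio of 5.69 became 3.45 without the highest cells.

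On the lower side, beside Ibsp and Cxcl1, most genes were found in few cells. Cd200, a surface protein that restrains myeloid cells, was at 123 CPM in 17 cocktail members and 372 CPM in 25 vehicle members, a log2 ratio of -1.59 (-1.93 to -1.26). The transcription cofactor gene Hes6 was at 56.5 CPM in cocktail members and 249 CPM in vehicle members, in 9 cells each (-2.14, -2.63 to -1.67). Aldh1a2, which makes retinoic acid, was at 64.6 CPM in cocktail members and 140 CPM in vehicle members (-1.11, -1.62 to -0.62), but its ratio was 1.01 among members with at least 10 Dcn UMIs per 10000. The activin antagonist Fst was lower (-1.02, -1.65 to -0.41), as were the Slit receptor gene Robo1 (-1.89, -2.65 to -1.18), the tubulin-binding protein gene Stmn1 (-1.52, -2.12 to -0.95) and the prostacyclin synthase Ptgis (-1.68, -2.41 to -0.98). The muscle intermediate filament gene Des was found in 4 cocktail and 13 vehicle members (-1.82, -2.72 to -0.99). Csmd1, a large membrane protein gene (-1.66, -1.97 to -1.36), had 150 of its 301 vehicle UMIs in 1 cell. For Rasef, a Rab-like GTPase, 1 vehicle cell held 41 of 53 UMIs, and cocktail members had 1 UMI.

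The hypoxia and antioxidant lists leaned to the cocktail side, and the list of p53 and cell cycle arrest genes did not, with a median of 0.02, 5 of 10 genes above 0 and none past 2-fold. All 13 hypoxia and glycolysis genes with at least 20 UMIs were above 0, with a median of 0.34, and Ankrd37, a hypoxia-inducible gene, was the 1 gene past 2-fold (1.80, 0.84 to 2.89). The glycolytic enzymes Eno1 (0.50, 0.28 to 0.72) and Hk2 (0.59, 0.20 to 0.98) and the lactate dehydrogenase Ldha (0.29, 0.16 to 0.42) had smaller ratios. In Epcam-positive cells 14 genes of this list had at least 20 UMIs, with a median of -0.65 and none above 0, and in the Otor gate the median was -0.42. Those differences were not tested. Of 10 metallothionein and antioxidant genes 3 were at least 2-fold higher, the cystine transporter Slc7a11, the heme-degrading enzyme Hmox1 (1.11, 0.81 to 1.42) and the sulfiredoxin Srxn1 (1.15, 0.41 to 1.94), and 1 was lower, the secreted glutathione peroxidase Gpx3 (-1.54, -2.46 to -0.67). The list median was 0.73. Mt1 was at 4841 CPM in cocktail members and 2758 CPM in vehicle members (0.81, 0.73 to 0.89), whereas its neighbour Mt2 was at 1355 CPM in cocktail members and 1386 CPM in vehicle members (-0.03, -0.16 to 0.09).

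Secreted growth regulators and pathway readouts differed gene by gene. Of 11 growth factor and binder genes with at least 50 UMIs, 3 were at least 2-fold higher and none lower: Igfbp6, the Wnt agonist Rspo3 (1.34, 0.76 to 1.94) and Igfbp3, whose ratio of 1.52 was 0.42 without the highest cells. Rspo3 had 111 UMIs in 20 cocktail members and 33 UMIs in 11 vehicle members, so a Wnt agonist and the Wnt antagonist Sfrp4 were both higher. Wnt target genes were poorly measured, with 3 of 12 at 20 UMIs or more, among them the cyclin gene Ccnd1 at 142 CPM in cocktail members and 260 CPM in vehicle members (-0.87, -1.22 to -0.53). Genes that cyclic AMP induces had a median of -0.29, with 6 of 8 below 0, and the immediate early gene Fos was at 327 CPM in cocktail members and 622 CPM in vehicle members (-0.93, -1.15 to -0.70). TGF beta response genes had a median of 0.00 over 15 genes, with the matrix glycoprotein gene Thbs1 the 1 gene past 2-fold (-1.68, -2.41 to -0.98). H19, an imprinted fetal RNA, was higher (1.52, 1.09 to 1.96), but its ratio was -0.60 with a threshold of 2 Dcn UMIs per 10000.

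Among receptors for osteopontin and related ligands, the fibronectin receptor subunit gene Itga5 was higher in cocktail members (1.10, 0.38 to 1.87) and the hyaluronan and osteopontin receptor gene Cd44 lower (-1.04, -1.89 to -0.23). The integrin subunit gene Itgav was at 107 CPM in cocktail members and 73.7 CPM in vehicle members (0.54, 0.02 to 1.07). In this list 5 genes had at least 50 UMIs.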

How the data were processed

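Single-cell RNA was measured in 2 droplet libraries (10x 3′ kit). The authors deposited a matrix of unnormalized UMI counts for each library, from Cell Ranger 5.0.0 per the file headers. In the submitters' processing notes Seurat 3.2.2, STAR, GRCm38 and mm10 appear as well, with no stated role. Of 31053 gene identifiers 31011 had a position in GENCODE M21, and promoter sequences from RefSeq (GRCm38.p6).

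Kept barcodes had 500 UMIs or more, 300 genes or more and no more than 20% mitochondrial UMIs, so that 74 cocktail barcodes and 104 vehicle barcodes were dropped. This left median depths of 10391 and 12267 UMIs. Free RNA was not subtracted. Members were then chosen by the rule in the text, with Mki67, Top2a, Cdk1, Birc5, Ube2c, Cenpf and Ccnb1 as mitotic genes. The members and the gene lists were chosen with earlier results of these data known.

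CPM is summed UMIs per 1000000. Cells are not replicates, so a single library per group allowed no p-value. Calls and list medians used a prior of 0.5 count per library, and printed ratios of single genes with their exact conditional intervals used none, also without each library's highest cell or the bone-marked members (Ifitm5 excepted). Ratios of single genes under another membership rule, scaling or thinning included the prior, as do all of those in the closing part on processing. Shares have Clopper-Pearson intervals. Thinning drew 5000 UMIs per cell (seed 0), and Spearman's rho is given over thinned members of each library. Genes compared for likeness were detected in at least 20% of thinned members and were ranked by the weaker of their 2 correlations. Genes were named by a fixed rule: 12 higher and 12 lower with at least 50 UMIs and detected in at least 10% of members of a library, ranked by the bound of the interval nearest 0 without each library's highest cell and leaving aside genes of mitochondria, ribosomes and haemoglobin, sex-linked genes and unnamed gene models; all gradient, chemokine and target genes; up to 4 per list and direction; 15 identity genes; and 6 most and 4 least alike per gradient gene. Some genes in the text (markers, Cd44, Itgav, Mt2, Myh11, Trf, Ldha, Igfbp3 and further interferon genes) were added from the lists after their values were seen. For comparison, kept cells outside the Dcn gate were gated on Otor, on Mfap4, or on Ibsp or Alpl (at least 5 per 10000). These cells had Dcn under 5 per 10000, no Epcam UMI and fewer than 4 mitotic UMIs. The Epcam gate held kept cells with at least 1 Epcam UMI. Scanpy 1.11.5, SciPy 1.17.1 and NumPy 2.4.6 were used. Simulated counts with planted differences were used to check the ratios.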

Additional observations from a re-analysis of the deposited data

Results flagged for a closer look

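For 11 genes the cocktail over vehicle log2 ratio had one sign in the Dcn-high members and the opposite sign in Epcam-positive cells, with both counting intervals apart from 0, at least 2-fold in the members and a log2 ratio of at least 0.5 in size in the Epcam-positive cells (32 and 32 members, 493 cocktail and 572 vehicle Epcam-positive cells). They are 11 of 58 genes examined, and 5 of these 58 met the same limits with the same sign in both kinds of cell. The 58 were mostly the leading genes and listed genes of this contrast, so they were not picked independently of it. Over all 4565 genes with at least 50 UMIs in both kinds of cell, 48 met the same limits with opposite signs (1.05%) and 36 with the same sign (0.79%). None of these differences was tested, since there is 1 library per group. Genes higher in cocktail members and lower in cocktail epithelial cells were the interferon genes Cxcl10 (4.91 and -1.66), Cmpk2 (2.91 and -0.60, with 58.0% of the cocktail member UMIs in 1 cell) and Rsad2 (2.30 and -0.71), the lipocalins Ptgds (5.43 and -1.94), Apod (2.41 and -0.99) and Lcn2 (1.03 and -0.83), and Hmga2 (1.07 and -1.76), with 62.5% of the cocktail UMIs in 1 member. Genes lower in cocktail members and higher in cocktail epithelial cells were Fst (-1.02 and 0.85), Hes6 (-2.14 and 0.58), Ptgis (-1.68 and 1.17) and Rasef (-6.14 and 2.18), the last with 1 UMI in cocktail members.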

How the results depend on the processing

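No paired analysis was possible because each group is 1 library. Over 140 results and 17 alternatives, 1557 of 1821 values stayed the same within set limits, 258 moved and 6 reversed. The limit was the counting interval for single genes and shares, and 1.5 times for counts. For list medians it was the median margin of their genes' intervals, and for rank correlations a Fisher interval over the cells. Genes and list medians could count as reversed only if at least 2-fold at first. Sign changes of smaller ratios, as for Spp1 and Cxcl12, therefore count as moved. The alternatives without bone-marked members and with at least 2 Dcn UMIs were chosen after seeing the data. The Spp1 ratio was 0.24 with at least 500 UMIs, -0.18 with at least 10 and 0.39 with at least 2 Dcn UMIs per 10000, 0.27 with at most 1 Epcam UMI, -0.14 with no mitotic UMI, 0.23 without bone-marked members, 0.18 as a mean of per-cell CPM and 0.21 after thinning. The Cxcl12 ratio was -0.29 with at least 2 Dcn UMIs per 10000, 0.071 with no mitotic UMI, 0.51 without the highest cells, 0.62 as a mean of per-cell CPM and 0.56 after thinning. The Sfrp4 ratio was 1.51 with at least 2 Dcn UMIs per 10000. The Hmga2 ratio was -1.48 with at least 10 Dcn UMIs per 10000, 1.83 with no mitotic UMI and 0.38 without the highest cells. With at least 10 Dcn UMIs per 10000, Aldh1a2 was at 1.01 and Atoh1 at -0.86, and Atoh1 was at -0.32 without the highest cells. H19 was at -0.60 with at least 2 Dcn UMIs per 10000, and Ifitm5 at 1.66 without bone-marked members. As a mean of per-cell CPM 167 genes were lower. After thinning 48 were higher and 27 lower, on fewer UMIs, and with a minimum of 20 UMIs 449 were higher and 345 lower. The rank correlation of Spp1 and Cxcl12 was 0.55 over all cocktail members without thinning. Beyond the constructions named, the cause was not tested. The share differences kept their sign under each alternative run, between 1.53 and 3.22 points over all kept cells and between 0.56 and 1.86 points over deep cells. Median-of-ratios scaling shifted all ratios by 0.03. The small number of members, 32 per library, and single high cells limit every ratio here.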

Other observations

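The shallow members, left out of the main cocktail over vehicle ratios above, carried some of the leading genes named above in many cells and others in few. Over the 46 members with under 5000 UMIs, which held 55667 UMIs in the cocktail library and 16868 UMIs in the vehicle library, Igfbp7 was in 36 cells, Col3a1 in 23, Spp1 in 29, Timp1 in 39 and Cxcl12 in 7. Spp1 was at 6575 CPM in the shallow and 21378 CPM in the deep cocktail members, and at 22884 CPM in the 7 shallow and 17146 CPM in the deep vehicle members. Mgp was at 3251 CPM in the shallow and 5733 CPM in the deep cocktail members, and at 18852 CPM in the shallow and 8412 CPM in the deep vehicle members. Apod was in 7 of the 46 cells, Lbp in 6, Sfrp4 in 5 and Selenop in 3. Such counts depend on depth, and the summed levels of these genes went different ways. Over shallow and deep members of both libraries, Apod was at 1062 and 960 CPM and Lbp at 303 and 378 CPM. Sfrp4 was at 152 and 319 CPM and Selenop at 68.9 and 284 CPM. Hmox1 was at 1886 CPM in the shallow cocktail members and 315 CPM over all deep members, and Stmn1 at 719 and 79.0 CPM. Whether shallow and deep members are the same kind of cell was not tested. Cxcl12 had 6 UMIs in the shallow cocktail members and 2 in the shallow vehicle members. Epcam is 0 in both by the rule.

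Of the deep cells without Epcam, 39 in the cocktail library and 45 in the vehicle library met the Dcn level before the mitotic limit was applied, and 32 of each remained after it. Among the remaining members, 11 in the cocktail library and 9 in the vehicle library still held a UMI of a mitotic gene.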
